A study of Cenchrus purpureus with 8 samples.

Results

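Among 66981 loci assembled from young stem RNA of napiergrass (Cenchrus purpureus), 286 had reads in a single germplasm entry, BAGCE_10. A locus here is a set of assembled transcripts that share an identifier up to its last number, and its reads are the estimated reads of those transcripts, summed and rounded. The 286 loci are those with at least 10 reads in BAGCE_10 and 0 reads in each of the other 7 libraries. A limit of 300 loci was not reached, so no locus that met the rule was left out. The reads of all 8 libraries chose the loci, so their reads are given as a description, with no test.

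The study compared young stem of 4 entries with high lignin and 4 with low lignin, picked by its authors from earlier work. The high lignin entries were BAGCE_5, BAGCE_10, BAGCE_82 and BAGCE_Pioneiro, and the low lignin entries were BAGCE_7, BAGCE_32, BAGCE_96 and BAGCE_98. The labels enter the lignin class under treatment, and no other treatment and no age is given for any entry. Each entry is a germplasm bank accession with 1 library. BAGCE_10 therefore has no replicate, and what belongs to the entry, to the sampled plant and to the library cannot be told apart.

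Napiergrass is a tall forage grass that is grown from cuttings, crosses freely and carries a pair of related subgenomes. In grasses, plants of the same species can differ in which genes they carry, in which they express, and in how far their sequences depart from a reference. Each of these gives a locus with reads in some plants and none in others, and read counts alone cannot tell them apart. The files give no gene names, sequences or positions for the loci, so no function can be attached to them and the tissue could not be checked against marker genes. Locus numbers are used below as the identifiers give them, and whether they follow the chromosomes is not stated in the sources used here.

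The libraries held between 14925391 and 17997520 reads, and BAGCE_10, with 17844473, was second to BAGCE_5. At this depth, a count of 0 allows up to 3 reads in a library, or 0.167 to 0.201 CPM (reads scaled to a library of 1000000), which covers counting error only. Reads tended to come in even numbers. In BAGCE_10, 3259 loci had exactly 2 reads and 806 had exactly 1, and among loci with 1 to 200 reads 66.8% had an even count, against 64.6% to 67.3% in the other 7 libraries. Of the 286 loci, 203 (71.0%) had an even count. The sources used here do not say whether both ends of a fragment were counted. If they were, a locus with 10 reads rests on as few as 5 fragments.

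BAGCE_10 held more loci of this kind than any other entry, and by number more of them had at least 100 reads. Its 286 loci were 0.634% of the 45128 loci with at least 10 reads in BAGCE_10. Under the same rule BAGCE_96 had 81 loci, BAGCE_Pioneiro 68, BAGCE_32 61, BAGCE_98 42, BAGCE_7 39, BAGCE_5 24 and BAGCE_82 10. As a share of the loci with at least 10 reads in each entry, these were 0.174%, 0.141%, 0.132%, 0.0889%, 0.0856%, 0.0571% and 0.0217%. The high lignin entries thus held both the highest count and the 2 lowest, and the 3 high lignin entries other than BAGCE_10, at 10 to 68 loci, overlapped the low lignin entries, at 39 to 81. No locus of the 286 separates the lignin groups, since 3 of the 4 high lignin entries had no read for it. BAGCE_5 was deeper than BAGCE_10 and had 24 such loci, and the part of depth was not tested. With every library thinned to the smallest, BAGCE_10 had 248 and the others 9 to 70.

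**Figure D1:**
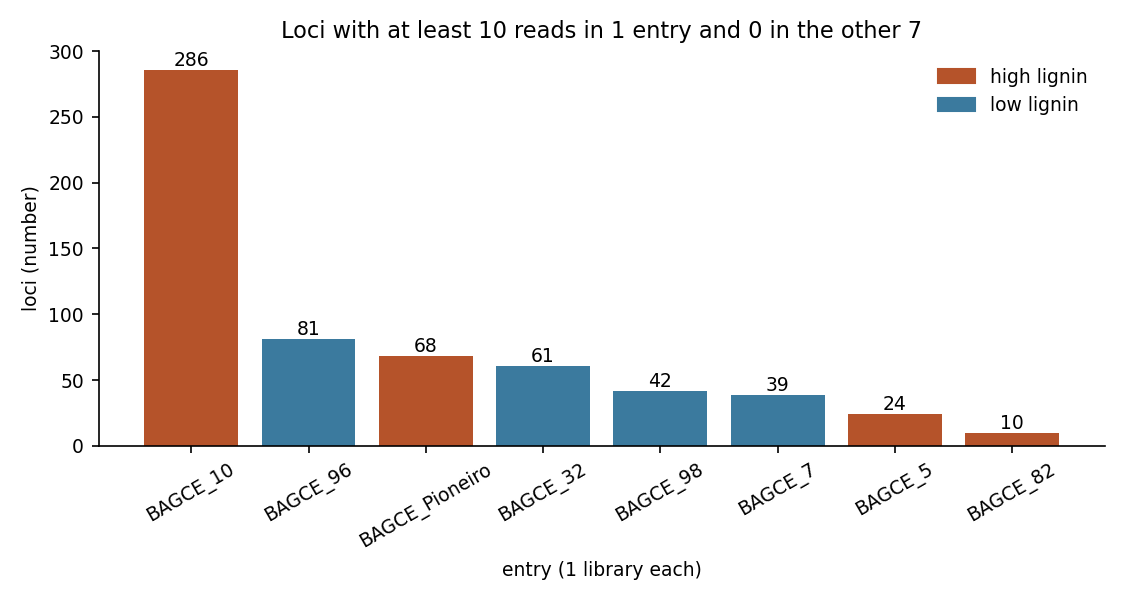
Bars give the number of loci with at least 10 reads in the entry named on the x axis and 0 reads in each of the other 7, with 1 library per entry and colour for the lignin group. BAGCE_10 stands at 286 and the next entry, BAGCE_96, at 81.

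Most of the 286 loci had few reads, and a small number of them held much of the total. Reads per locus in BAGCE_10 ran from 10 to 663, with a median of 20 and quartiles of 13 and 37.5. There were 136 loci (47.6%) with 10 to 19 reads, 97 with 20 to 49, 34 with 50 to 99, 10 with 100 to 199 and 9 with 200 or more. Together they held 11543 reads, 0.0647% of the library, and the 5 loci with most reads held 20.3% of these. The 19 loci with at least 100 reads held 39.2%. That is 19 of 286. Among the loci found only in another entry, 4 of 81 reached 100 reads in BAGCE_96 and 2 of 42 in BAGCE_98. It was 1 of 68 in BAGCE_Pioneiro, 1 of 61 in BAGCE_32 and 1 of 39 in BAGCE_7. None of 24 in BAGCE_5 or of 10 in BAGCE_82 did so. The median reads per locus were close, 15 to 20 in those entries, and the upper quartiles ran from 17.5 to 37, against 37.5 in BAGCE_10. The highest count in each of those entries was 62 to 255 reads, against 663. A larger set can hold more high counts by its size alone, so the clearest difference of BAGCE_10 was in the number of loci.

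The locus with most reads was MSTRG.12927, with 663 reads in BAGCE_10 and 0 in the other 7 entries. That is 37.2 CPM, at least 185-fold higher than the highest floor of 3 reads in any of the other libraries. It ranked 4686 by reads among all loci of BAGCE_10, so even the strongest of the set was far from the most abundant transcripts of the stem. MSTRG.24400 had 542 reads and MSTRG.47900 had 533, again with 0 in all other entries, which puts them at least 151-fold and 149-fold above that floor. MSTRG.17226 had 338 reads and MSTRG.9545 had 270, at least 94.2-fold and 75.3-fold above it. For the whole set the bound was lower, with a median of 5.58-fold. It reached 10-fold at 74 loci and 20-fold at 34, so for most of the 286 the depth leaves room for a low level elsewhere. If both ends of a fragment were counted, the floor would be 6 reads and each bound would be lower to match, at 92.4-fold for MSTRG.12927 and a median of 2.79-fold for the set, with 34 loci at 10-fold or more.

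On a scale that allows for length, the loci were closer to the rest of the stem transcriptome. The authors' TPM, summed over the transcripts of a locus, ran from 0.527 to 110 with a median of 3.95. The 44842 other loci with at least 10 reads in BAGCE_10 had a median of 4.72 TPM, and a median of 77 reads. At least 1 TPM was reached by 280 of the 286 loci (97.9%), against 90.7% of the others. The highest TPM belonged to MSTRG.47900, a locus with a single transcript of 453 bases. It stood at 110 TPM and ranked 1150 among all loci by TPM, against 5871 by reads. MSTRG.24400, of 740 bases, was at 61.3 TPM, MSTRG.17226, of 554 bases, at 54.0 TPM and MSTRG.12927 at 34.4 TPM. A minimum set in reads asks a higher TPM of a short transcript than of a long transcript, and the TPM of the set carries that choice.

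At the threshold, the last loci inside and the first outside hardly differed. MSTRG.914, of 548 bases, and MSTRG.9810, of 1470 bases, were inside with 10 reads each, and MSTRG.175, of 501 bases, was just outside with 9. In all, 32 loci had exactly 10 reads and 8 had 9 reads with 0 elsewhere. With those 8 included, 169 loci had 1 to 9 reads in BAGCE_10 and none in any other entry, against 43 to 115 of that kind in the other entries.

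The second edge of the rule, the 0 reads elsewhere, kept out loci with a stronger contrast than any inside. MSTRG.58781, of 453 bases, had 1777 reads in BAGCE_10, 2 in BAGCE_Pioneiro and 0 in the other 6. MSTRG.46377, of 668 bases, had 1596 reads in BAGCE_10, 2 in BAGCE_Pioneiro, 1 in BAGCE_7 and 0 in the other 5. Both had over 2 times the reads of MSTRG.12927. There were 151 loci with at least 10 reads in BAGCE_10 and 1 to 3 reads in all over the other libraries, with a median of 20 reads in BAGCE_10. Of these, 93 had a total of 2 reads elsewhere, and at 90 of the 93 both reads were in 1 library. Reads from BAGCE_96 were the most frequent, at 50 of the 151 loci, while each of the other 6 entries had reads at 16 to 27.

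A count that tolerates such reads, chosen after the values were seen, was also highest in BAGCE_10. It took loci with at least 100 reads in an entry and at most 1% of that number over the other 7 together. BAGCE_10 had 40 loci of this kind among its 19847 loci with at least 100 reads, 19 of them among the 286 and 21 outside. The 19 have 0 reads elsewhere by the rule, so they meet the second part by construction. The other entries had 5 (BAGCE_96), 4 (BAGCE_7), 3 each (BAGCE_32 and BAGCE_98), 2 (BAGCE_Pioneiro), 1 (BAGCE_5) and 0 (BAGCE_82). Their loci with at least 100 reads numbered 19400 to 22375.

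The 286 loci were short. The longest transcript of a locus had a median of 529 bases, with quartiles of 322 and 820 and a range from 202 to 4542. The 44842 other loci with at least 10 reads in BAGCE_10 had a median of 1465 bases. Under 500 bases lay 137 of the 286 (47.9%) and 5.49% of the others, and at least 2000 bases were reached by 6 (2.10%) and 28.0%. The longest was MSTRG.53357, a single transcript of 4542 bases with 149 reads in BAGCE_10 and none elsewhere. Its 2.42 TPM lay below the median of the set.

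The difference in length was also present at matched reads. Among loci with reads between the quartiles of the set, the median was 518 bases for 152 of the 286 and 1151 bases for 11607 others. Within each band of reads the order was the same. At 10 to 19 reads the medians were 418 and 990 bases, at 20 to 49 reads 620 and 1249, at 50 to 99 reads 766 and 1495, and at 100 or more reads 740 and 1767. Loci found only in another entry were as short, with medians from 494 to 617 bases. Short lengths were thus shared by the loci found in a single entry in all 8 entries. Loci are not replicates, and these lengths were not tested.

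**Figure D2:**
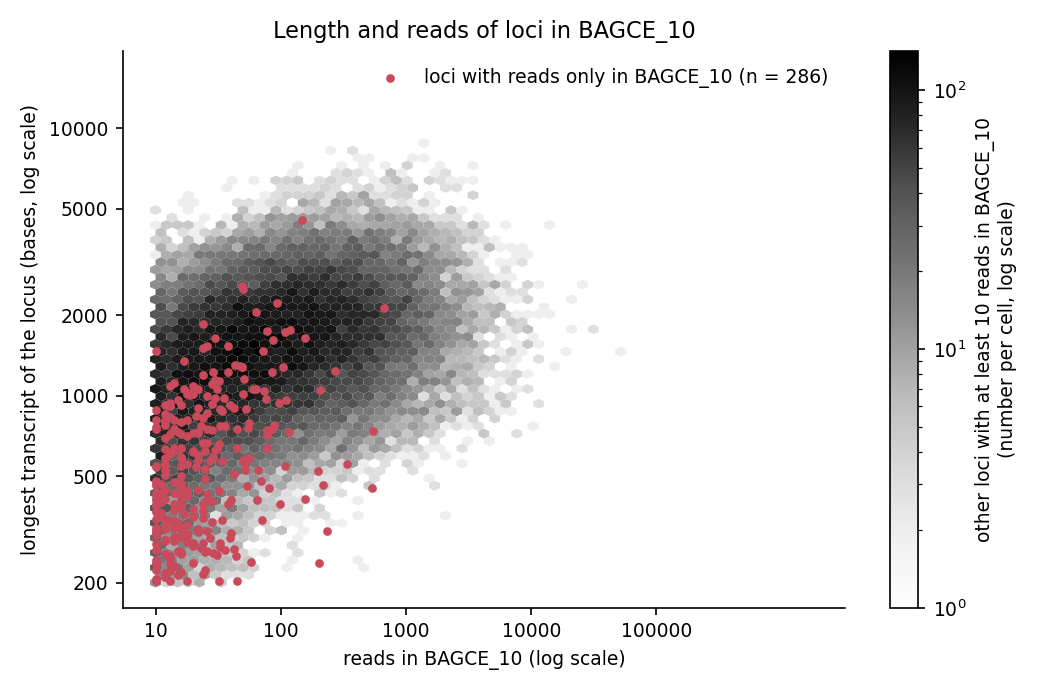
Each red point is 1 of the 286 loci, with its reads in BAGCE_10 on the x axis and the length of its longest transcript on the y axis, both on log scales, and grey cells count the 44842 other loci with at least 10 reads in BAGCE_10. The red points lie low in the grey cloud, with a median of 529 bases against 1465.

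Loci shared by more entries were mostly longer. Taking only loci whose 8 counts were each 0 or at least 10, and BAGCE_10 among the entries with reads, the median length was 740 bases for 95 loci in 2 entries and 1048 bases for 35 loci in 3. It was 1079, 1072 and 1274 bases in 4, 5 and 6 entries, 1464 bases for 1208 loci in 7 and 1636 bases for 30703 loci in all 8. Reads in BAGCE_10 mostly rose along the same scale, from a median of 20 in 1 entry to 31 in 2 and 133 in 8, with 27 in 3. The steps in length and in reads went together, and their separate parts were not tested here.

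Nearly all of the 286 loci had been assembled with 1 transcript. There were 266 with 1 transcript (93.0%), 18 with 2, 1 with 3 and 1 with 4, while 64.1% of the other loci had 1. In the quartile range of reads the shares were 96.1% and 79.3%. The loci found only in another entry had 88.1% to 97.1%. The 20 loci with several transcripts had more summed reads, with a median of 81.5 against 18.5 for the rest. Reads that fit several transcripts may be counted more than 1 time in these sums. Their most abundant transcript held 32.1% to 63.6% of the reads of the locus, and at 11 of the 20 the leading pair of transcripts differed by 2 reads or fewer.

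MSTRG.12927 had the most transcripts. Its 4 transcripts had 213, 193, 175 and 82 reads in BAGCE_10, at lengths of 2131, 2130, 1878 and 562 bases. MSTRG.32853 had 2 transcripts of 533 and 548 bases with 54 reads each. How reads that fit several transcripts of a locus were divided is not given, so near-equal counts of this kind may be the same reads counted more than 1 time. When a locus was counted by its leading transcript alone, 285 loci met the rule.

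Few transcripts outside the 286 loci were found only in BAGCE_10. By transcript, 313 met the same rule, of which 306 belonged to the 286 loci. Every transcript of those loci has 0 reads elsewhere by the rule, so this share follows largely from the choice of loci. The other 7 came from 6 loci that had reads elsewhere. MSTRG.13265.4, of 991 bases, was the strongest of these, with 175 of the 527 reads of its locus in BAGCE_10, where the other entries had 0 to 330 reads for the locus. MSTRG.36161.2, of 1002 bases, had 42 of the 242 reads of its locus, where the others had 0 to 461. These transcripts were named after their values were seen.

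The 286 loci were spread over the whole range of locus numbers and were also found beside each other. In 20 equal stretches of locus numbers their share of the loci with at least 10 reads in BAGCE_10 ran from 0.291% to 1.43%. The highest share was at numbers 10048 to 13396, with 29 loci, and the lowest at 36841 to 40189, with 7. Another locus of the set lay within 5 numbers for 58 of the 286 (20.3%), which formed 27 runs, 23 of 2 loci and 4 of 3. The other 228 stood alone. Loci in runs had a median of 23 reads and 548 bases, and those alone 19 reads and 507 bases.

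The share of neighbours in the set was highest at consecutive numbers. Of the immediate neighbours of the 286 loci, 6.99% were in the set (20 pairs with consecutive numbers), where the set is 0.427% of all loci. The share was 1.40% at 2 numbers, 0.699% at 3 and at 4, 2.10% at 5, 0.350% at 6 to 10, 0.874% at 11 to 20, 0.641% at 21 to 50 and 0.520% at 51 to 200. The fall was thus not steady, with rises at 5 numbers and at 11 to 20, and from 11 numbers on the share fell but stayed above 0.427%. The loci found only in another entry, each compared with its own entry and pooled, had 3.69% at 1 number and 0.138% at 51 to 200, where they average 0.0693% of all loci. By entry, loci with another of their own set within 5 numbers were 10 of 42 in BAGCE_98 (23.8%), 11 of 81 in BAGCE_96, 6 of 68 in BAGCE_Pioneiro, 2 of 39 in BAGCE_7 and 0 in BAGCE_5, BAGCE_32 and BAGCE_82. Runs were therefore found in other entries too, and the share in BAGCE_98 was as high as in BAGCE_10 with a smaller set.

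**Figure D3:**
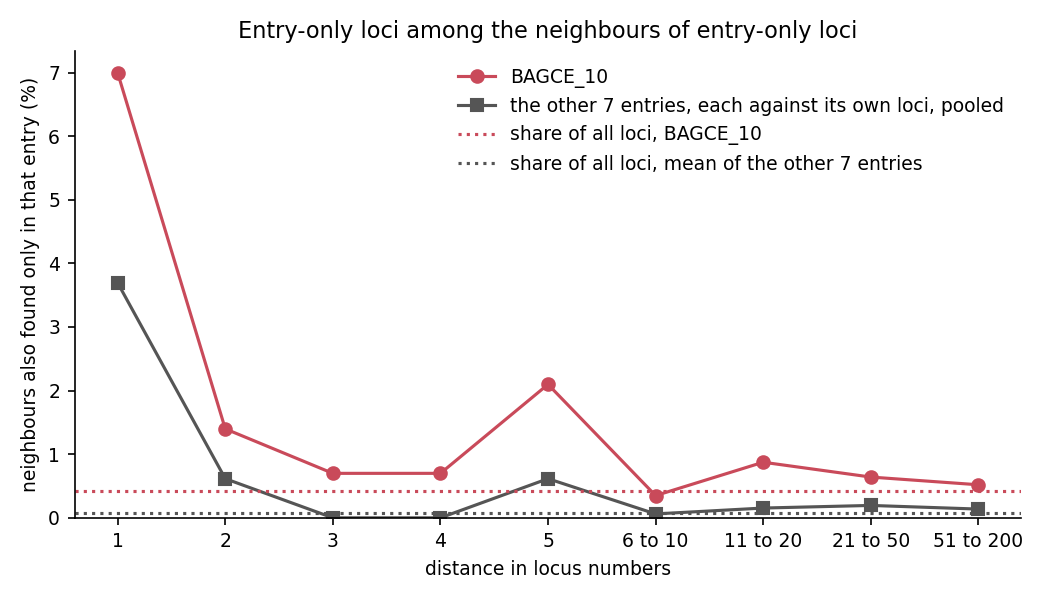
The x axis is the distance in locus numbers and the y axis the percentage of loci at that distance that are found only in the same entry, for BAGCE_10 (red) and for the other 7 entries pooled (grey), with dotted lines for the share of all loci. The red line goes from 6.99% at 1 number to 0.350% at 6 to 10, with a rise to 2.10% at 5, and is 0.874% at 11 to 20.

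The first of the runs of 3 loci lay between loci that every entry expressed. MSTRG.12914, MSTRG.12915 and MSTRG.12916, of 585, 328 and 221 bases, had 56, 18 and 13 reads in BAGCE_10 and 0 in the other 7. The locus before them, MSTRG.12913, had 178 to 372 reads in all 8 entries, with 315 in BAGCE_10, and the locus after them, MSTRG.12917, had 72 to 1687, with 122 in BAGCE_10. BAGCE_10 was inside the range of the other entries at both. Further out, BAGCE_10 was not always so. MSTRG.12912 had 0 reads in BAGCE_10 and 2 to 13 in each other entry. On the other side, MSTRG.12918 had 8 reads in BAGCE_10 and 0 to 20 elsewhere. MSTRG.12924, between this run and MSTRG.12927, had 0 reads in BAGCE_10 and 4 to 36 in each other entry.

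MSTRG.32853, MSTRG.32854 and MSTRG.32855 had 108, 16 and 10 reads in BAGCE_10 and 0 elsewhere. MSTRG.32856 beside them had 174 to 262 reads in all 8 entries, with 207 in BAGCE_10. On the other side MSTRG.32852 had 0 to 42 reads, with 2 in BAGCE_10, and next to it MSTRG.32851 had 1447 reads in BAGCE_10 against 288 to 1138 in the others. The third run, MSTRG.22770, MSTRG.22771 and MSTRG.22775, had 22, 11 and 24 reads in BAGCE_10. It was broken by 3 loci with a different pattern, among them MSTRG.22772, with 2 reads in BAGCE_10, 0 in BAGCE_5 and BAGCE_7, 2 in BAGCE_32 and 61 to 261 in the other 4.

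Of the 5 loci with most reads, 4 also had neighbours with reads wholly or mainly in BAGCE_10. MSTRG.12927, only 11 numbers from the first run, was followed by MSTRG.12928, a locus of the set with 14 reads. MSTRG.24400 was preceded by MSTRG.24399, also of the set, with 29 reads, and by MSTRG.24398, with 8 reads in BAGCE_10 and 2 in BAGCE_Pioneiro. MSTRG.47900 was preceded by MSTRG.47899, with 81 reads in BAGCE_10, 4 in BAGCE_96 and 0 elsewhere, and by MSTRG.47898, with 11 in BAGCE_10 and 6 in BAGCE_98. MSTRG.17226 was preceded by MSTRG.17225, with 211 reads in BAGCE_10, 2 in BAGCE_82 and 0 elsewhere. MSTRG.9545 had no such neighbour, as MSTRG.9544 had 6 to 24 reads in all 8 entries and MSTRG.9546 had 0 to 12. On the other side, the next locus outside the set had reads in several entries in each of the 4 cases. MSTRG.12926 had 258 reads in BAGCE_10 and 0 to 1280 elsewhere, and MSTRG.24401 had 6 and 0 to 11. MSTRG.47901 had 119 reads in BAGCE_10 and 14 to 190 elsewhere, and MSTRG.17227 had 322 and 0 to 793.

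**Figure D4:**
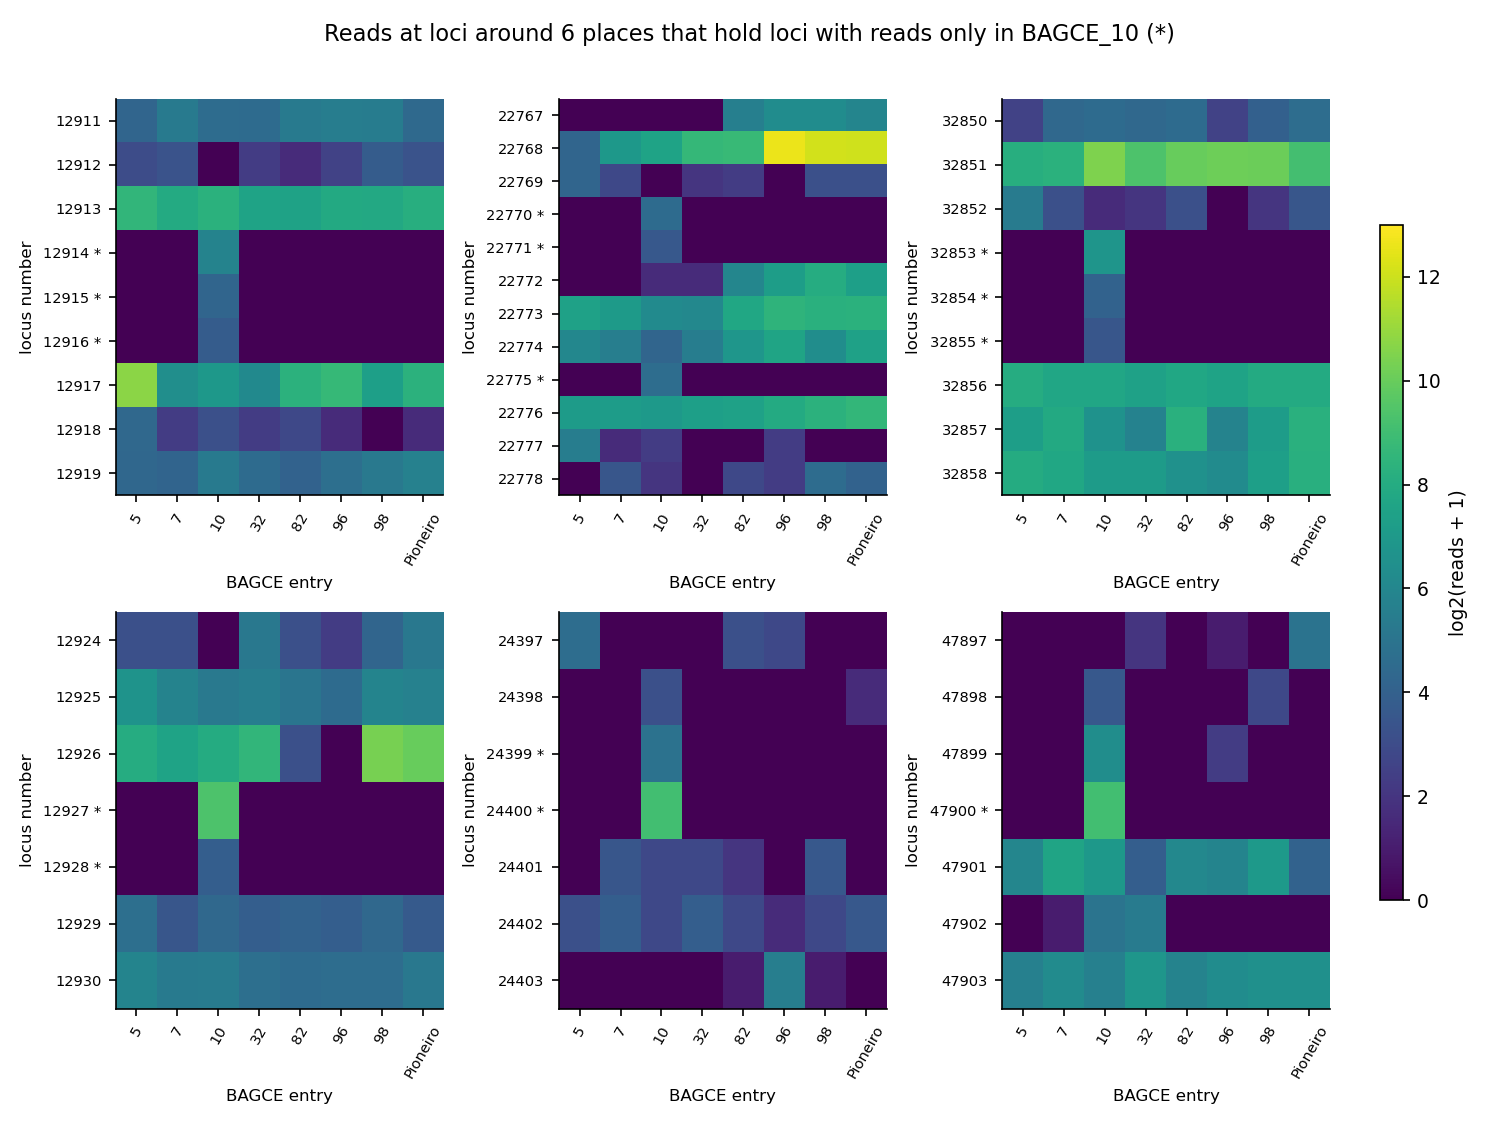
Each panel shows reads as log2(reads + 1) by colour for consecutive locus numbers (rows) in the 8 entries (columns), around the first 3 runs of 3 loci (top) and the 3 loci with most reads (bottom), with loci of the set marked by a star. The starred rows have reads in the BAGCE_10 column alone, many of them few and so dark, while rows such as 12913 and 32856 have reads across all 8.

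Over all 286 loci, most flanking loci had at least 10 reads in BAGCE_10, and a larger share of them than elsewhere had their highest level in BAGCE_10. There were 530 loci directly before or after a locus of the set that were not in it themselves. At least 10 reads in BAGCE_10 were found at 344 of them (64.9%), against 67.3% of the 66165 remaining loci. Reads reached 10 in all 8 entries at 197 (37.2%), against 46.1%. At those 197, the level in BAGCE_10 was below the median of the other 7 entries by a median log2 ratio of -0.26, and at the 30506 remaining loci of that kind the median was -0.25. BAGCE_10 was the highest of the 8 entries at 7.61% of the 197 and at 8.29% of the others. It was the lowest at 16.8% and 20.1%. That comparison leaves out by its own filter any flanking locus with reads mainly in BAGCE_10. Among the 482 flanking loci with at least 10 reads in some entry, BAGCE_10 was the highest at 83 (17.2%), against 10.6% of the 60630 remaining loci of that kind. Of the 530, 10 (1.89%) had at least 10 reads in BAGCE_10 and 1 to 3 in all elsewhere, against 0.213% of the remaining loci. Of all 151 loci of that last kind, 20 (13.2%) lay within 5 numbers of a locus of the set, against 3.65% of the other loci outside the set with at least 10 reads in BAGCE_10. These shares over loci were not tested.

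Loci that were silent in BAGCE_10 alone lay beside the set about as often as beside other loci. BAGCE_10 had 0 reads at 190 loci that had at least 10 in each of the other 7 entries. Of the 286 loci, 6 (2.10%) lay within 5 numbers of such a locus, against 2.44% of the other loci with at least 10 reads in BAGCE_10. The loci silent in BAGCE_10 alone had a median length of 1383 bases, against 529 bases in the set.

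BAGCE_96, a low lignin entry, shared more loci with BAGCE_10 alone than did any other entry. Loci with at least 10 reads in BAGCE_10 and BAGCE_96 and 0 in the other 6 numbered 60, while BAGCE_10 shared 2 to 9 with each other entry on the same terms. Among the 28 pairs of entries, the next highest was BAGCE_7 with BAGCE_98, at 29, and the 21 pairs without BAGCE_10 had a median of 5. The 60 loci had a median of 37.5 reads in BAGCE_10 and 29 in BAGCE_96. The level in CPM was higher in BAGCE_10 at 39 of the 60, and the ratio of BAGCE_10 to BAGCE_96 had a median of 1.32 and ran from 0.104 to 26.2. Of the 60, 5 lay within 5 numbers of a locus of the set. Among all loci outside the set with at least 10 reads in BAGCE_10, without the 151 with 1 to 3 reads elsewhere, 3.65% did. Among the largest pairs without BAGCE_10, BAGCE_7 with BAGCE_98 had 2 of 29 and BAGCE_32 with BAGCE_Pioneiro 1 of 20. BAGCE_32 had 2 of 14 with BAGCE_96 and 0 of 13 with BAGCE_82. BAGCE_Pioneiro had 3 of 13 with BAGCE_5 and 1 of 13 with BAGCE_82. Lying near the set was thus not particular to loci shared with BAGCE_96. These shares were not tested. Without the BAGCE_96 library the rule gave 418 loci, 132 more than with it, while leaving out any other library added 22 to 30. Each left-out library can only add loci, so the size of the addition, not its direction, carries the information.

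**Figure D5:**
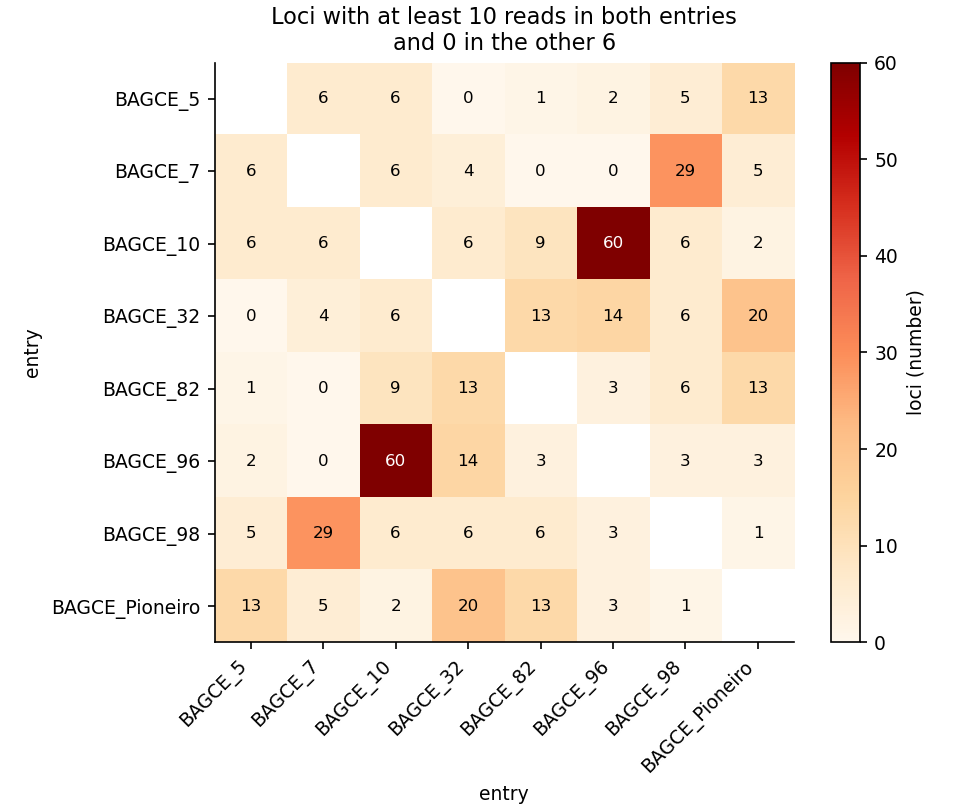
Cells give the number of loci with at least 10 reads in both the row and the column entry and 0 in each of the other 6, for all 28 pairs. BAGCE_10 with BAGCE_96 stands at 60 and the next pair, BAGCE_7 with BAGCE_98, at 29.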

How the data were processed

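RNA-seq libraries of young stem from 8 germplasm entries were used, 1 per entry. Per the labels' protocols, total RNA had an integrity number over 6.4 and at least 1000 ng, and stranded mRNA libraries were sequenced on an Illumina instrument. The submitters' processing notes name StringTie 2.0.4, Salmon 0.7.2, STAR 2.5.2b and FastQC 0.11.8, with no role for any. The genome build was not given in the sources used here. Per the file headers, the authors deposited the length and effective length in bases (other quantities, not abundance), a TPM and an estimated count of reads for each of 101169 transcripts. Of the estimated counts deposited, 99.974% were whole within 0.001 reads, and all were whole at the 286 loci.

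Estimated counts were summed per locus and rounded, and CPM used the library total (Python 3.11.15, pandas 2.3.3). The selection and the search for runs were tested on simulated data. No comparison of BAGCE_10 with the other entries was tested, since 1 library has no replicate and its reads chose the loci; Dixon's limit was used only to list values that stand apart. Within lignin groups chi-square values between libraries, per degree of freedom, ran from 77.7 to 173, so each was kept as a separate library. Replicate numbers only name libraries. The loci and lists were chosen with earlier results of these data known. Named loci are the 5 with most reads, 2 with fewest, the nearest below the minimum, the 3 largest runs (ties to the lower number), the locus with most transcripts, the longest, and the 2 strongest with 1 to 3 reads elsewhere. Their neighbours are given for context. The alternatives were other minima, tolerated reads elsewhere, single transcripts, the most abundant transcript, thinning, other distances and left-out libraries.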

Additional observations from a re-analysis of the deposited data

Results flagged for a closer look

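A library was looked for whose gap to the nearest other, relative to the whole range, exceeded Dixon's 95% limit, for 6 measures of loci found in 1 entry only, within each lignin group and over all 8 entries. It was exceeded in 3 of 18 comparisons, each with BAGCE_10 as the highest. Chance exceeds it in about 1 in 20 groups, but only where a group was not picked by its values. BAGCE_10 was chosen for these loci, so the limit is no test here and the values describe that choice. Over all 8 entries its 286 loci had a gap of 0.743 of the range. The reads in such loci, 11543 in BAGCE_10, had a gap of 0.794 of the range over all 8 entries and of 0.888 within high lignin. The median reads, median length, share of loci with 1 transcript and number of loci with 1 to 9 reads did not exceed the limit.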

How the results depend on the processing

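No paired analysis was possible because the results come from no test and every entry was sequenced a single time. The number of loci with reads only in BAGCE_10, 286, became 150 with a minimum of 20 reads, 163 with a minimum of 1 CPM and 437 with at most 3 reads in all over the other libraries, the last chosen after seeing the data. It stayed within 1.5 times under 5 other settings, from 248 (thinned) to 386 (minimum of 5 reads). BAGCE_10 had the highest count of the 8 entries under each of these 8 settings. With each other library left out it ran from 308 to 418, the highest without BAGCE_96. The share of loci with another within 5 numbers, 20.3%, was 13.3% within 1 number, 14.7% within 2 and 29.0% within 20, and ran from 18.6% to 22.5% with libraries left out. The median reads ran from 20 to 22 with libraries left out. The median length was 436 bases with a minimum of 5 reads and 663 with 20. BAGCE_10 itself cannot be left out. Depth limits what a count of 0 means, most of all at the 136 loci with 10 to 19 reads.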
